A study of Mus musculus with 16 samples.

Results

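The Bcl2 family proteins decide at the outer membrane of the mitochondrion whether a cell undergoes apoptosis. The RNA levels of 10 genes of this family were followed in mouse seminal vesicles (SVs): the anti-apoptotic *Bcl2*, *Bcl2l1* and *Mcl1*, the effectors *Bax* and *Bak1*, and the BH3-only genes *Bcl2l11*, *Bbc3*, *Bid*, *Bad* and *Bik*. They were taken by name, as 10 of the 31274 genes in the table, and all 10 passed the filter on low values (mean FPKM over 1 in any of the groups), as did 15988 genes in all. FPKM is the number of fragments scaled to the length of the exons and to all mapped fragments, so levels can be set side by side between genes. SVs of 5-week-old male C57BL/6 mice were collected in 4 groups of 4 samples. WT-veh pups were wild type and received corn oil, and WT-DES pups were wild type and received diethylstilbestrol (DES, a synthetic oestrogen) in corn oil, by subcutaneous injection of 2 µg per pup per day from day 1 to day 5 of life. αERKO-veh and αERKO-DES mice lacked functional oestrogen receptor α (ERα, from *Esr1*) in the whole body and received the same injections of oil or DES. WT pups were born to pregnant females from Charles River Laboratories, and αERKO pups came from crosses of heterozygous mice. Genotype therefore cannot be told apart from colony or dam. The question was which changes after neonatal DES are still present at puberty and which of them require ERα.

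The SV is a secretory gland of epithelium wrapped in smooth muscle, and it was separated from the anterior prostate at dissection. For RNA extraction, the methods describe individual mice for 3 groups but 3 pools of mice for WT-DES, while the table and the labels hold 4 samples of each group. It is therefore not known how the 4 WT-DES samples relate to those pools. The spread between these samples may be partly technical. It enters the pooled variance behind every p-value of the model with 16 samples, also in comparisons without WT-DES. *Esr1*, the disrupted gene, was at 0.91 to 1.75 FPKM in the αERKO samples, below all WT samples (2.81 to 4.55 in WT-veh and 8.74 to 19.6 in WT-DES), in the direction of the labels. FPKM hold no read counts, so the depth of the samples is unknown. Sample 1 of WT-DES stood apart from the others of its group, with a mean correlation of 0.972 with them against 0.981 to 0.982 for the other 3. Its mean log2 level of smooth muscle markers was 9.16, against 6.76 to 7.54 in the other WT-DES samples and 8.78 to 9.13 in WT-veh, and results of the 10 genes whose call it decides are given with and without it.

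Anti-apoptotic members bind and hold the pro-apoptotic members in healthy cells. BH3-only members are raised or activated by stress and by loss of survival signals, and they occupy the anti-apoptotic proteins or activate the effectors. Once active, Bax and Bak assemble into pores in the outer mitochondrial membrane, cytochrome c leaves, and the apoptosome (Apaf1 with caspase 9) starts the caspase cascade. In accessory sex glands, which depend on androgens, withdrawal of hormone is known to bring on apoptosis of the epithelium.

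The promoters of *Bcl2* and *Bcl2l11* are shown because, of the 10 genes, these had the largest increases after DES in WT SVs. The sequences are the 250 bases before the start of transcription in RefSeq (GRCm38.p6), each read along the strand of the gene, chr1:106714291-106714540 (minus strand) for *Bcl2* and chr2:128125788-128126037 (plus strand) for *Bcl2l11*. Capitals mark GC boxes, the letters GGGCGG or their reverse complement.

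Bcl2: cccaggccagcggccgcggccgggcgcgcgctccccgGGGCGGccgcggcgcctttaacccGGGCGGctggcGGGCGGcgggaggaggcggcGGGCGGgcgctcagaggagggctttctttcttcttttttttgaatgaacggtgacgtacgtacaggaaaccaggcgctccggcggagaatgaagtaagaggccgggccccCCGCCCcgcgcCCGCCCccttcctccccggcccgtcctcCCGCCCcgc
Bcl2l11: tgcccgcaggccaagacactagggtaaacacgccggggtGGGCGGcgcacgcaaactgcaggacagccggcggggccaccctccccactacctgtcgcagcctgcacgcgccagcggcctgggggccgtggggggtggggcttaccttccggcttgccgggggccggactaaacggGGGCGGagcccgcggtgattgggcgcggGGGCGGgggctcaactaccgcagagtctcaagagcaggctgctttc

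The *Bcl2* window holds 74.8% G and C with 7 GC boxes, and the *Bcl2l11* window 72.0% with 3, while the median over all promoters is 52.4%. At least 1 GC box was present in 32.7% of the 32851 promoter windows of that length. Of the 10 genes, 9 had a RefSeq promoter, with 15 windows in all, and *Bik* had none in the table used. The palindromic oestrogen response element, GGTCA and its reverse complement TGACC with 3 bases between them, was in 0 of the 15 windows and in 21 of all windows (0.0639%). Its half-site GGTCA, searched on both strands, was in 35.2% of all windows and in neither of the windows shown. It was in 4 of the 15 windows, of *Bcl2l1*, of *Bad* and of *Bcl2l11*, which has a second window in RefSeq (chr2:128127325-128127574) that is not shown. A forkhead motif, TGTTTAC, was in the window shown for *Bcl2l11* at position −227 from the start, in 1 window of *Bbc3* at −167, in 2 of the 15 windows in all, and in 3.17% of all promoter windows. The cyclic AMP response element TGACGTCA was in none of the 15 windows and in 1.55% of all. These are matches of letters, with no binding measured.

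Neonatal DES changed 6 of the 10 genes in WT SVs, 3 in each direction. *Bcl2*, *Bcl2l11* and *Mcl1* rose, and *Bax*, *Bad* and *Bik* fell, by limma on log2(FPKM + 1) with an adjusted p of at most 0.05. Among all genes tested, 36.4% were higher and 37.3% lower in this comparison, so in neither direction was the share of members above that of all genes. Of the 6, *Bcl2*, *Bcl2l11*, *Bax* and *Bad* also passed a 1.5-fold ratio of mean FPKM, which 52.7% of all genes tested did. After rescaling without the 20 most abundant genes, and under quantile normalization, *Bax* and *Bad* were under 1.5-fold and *Mcl1* was past it. The median log2 change was −0.13 over the 10 genes and −0.01 over all genes. The split depended on the scaling, since rescaling of the samples without the 20 most abundant genes gave 5 higher and 2 lower (54.9% and 20.4% of all genes) and quantile normalization gave 4 higher and 3 lower (32.4% and 38.1% of all genes).

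*Bcl2*, on chromosome 1 (106538178 to 106714274, minus strand, GRCm38), codes for the founding anti-apoptotic member. Its FPKM was 3.28, 4.28, 3.73 and 3.46 in WT-veh and 7.15, 14.7, 12.5 and 11.1 in WT-DES. Every WT-DES sample lay above every other sample, and sample 1 was the lowest of its group. *Bcl2* was 3.08-fold higher after DES in WT (3.69 ± 0.44 against 11.4 ± 3.17, SD, n = 4), a log2 change of 1.36 (SE 0.16, limma adjusted p = 2.31e-06), and without sample 1 of WT-DES the log2 change was 1.55. In bulk tissue, a change in the RNA of each cell and a change in the share of the cells that hold it cannot be told apart. In αERKO the FPKM of *Bcl2* was 4.26, 5.16, 3.88 and 5.36 after vehicle and 3.25, 3.49, 2.94 and 3.67 after DES. These do not overlap, and the αERKO-DES samples are the lower ones, but the log2 change of −0.38 (95% confidence interval −0.72 to −0.04) did not pass (limma adjusted p = 0.161). The change with DES in WT exceeded that in αERKO by 1.74 on the log2 scale (SE 0.23, limma adjusted p for the interaction 8.83e-06). In order of mean level, WT-DES stood first, and the ranges of αERKO-veh, WT-veh and αERKO-DES overlapped from each to the next.

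*Mcl1*, on chromosome 3 (95658788 to 95663176, plus strand), codes for a short-lived anti-apoptotic protein and had the highest FPKM of the 3 anti-apoptotic genes in every sample. It measured 68.0, 63.2, 63.9 and 66.4 FPKM in WT-veh and 88.0, 73.1, 70.5 and 75.7 in WT-DES. The WT-DES samples were all above the WT-veh samples. The increase was small, 1.18-fold or 0.22 on the log2 scale (SE 0.067, limma adjusted p = 0.00675). It passed under all alternatives, with a log2 change from 0.16 to 0.76, the latter under quantile normalization. In αERKO, *Mcl1* ranged from 59.2 to 64.8 FPKM after vehicle and from 60.1 to 67.6 after DES. The interaction of 0.17 (95% confidence interval −0.03 to 0.38) did not pass (limma adjusted p = 0.108). It did pass at 0.73 after rescaling without the 20 most abundant genes (limma adjusted p = 7.43e-07) and at 0.85 under quantile normalization (limma adjusted p = 1.96e-07).

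*Bcl2l1*, on chromosome 2 (152780668 to 152831728, minus strand), encodes Bcl-xL. Its FPKM was 47.5, 43.0, 43.0 and 48.9 in WT-veh, and 58.9, 29.4, 30.0 and 32.3 in WT-DES. Sample 1 of WT-DES was the highest of all 16 samples for *Bcl2l1* while the other 3 were the lowest of all 16. With the 4 samples the log2 change of −0.33 (95% confidence interval −0.69 to 0.03) did not pass (limma adjusted p = 0.0889). Without sample 1 of WT-DES it was −0.56 (limma adjusted p = 4.00e-05), and the interaction was −0.63 (limma adjusted p = 0.000256) in place of −0.40 (limma adjusted p = 0.145). Rescaling without the 20 most abundant genes gave 0.10 for the 4 samples. In αERKO the range was 36.3 to 40.4 FPKM after vehicle and 35.6 to 46.8 after DES, and neighbouring groups overlapped throughout the order of the 4 means.

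**Figure D1:**
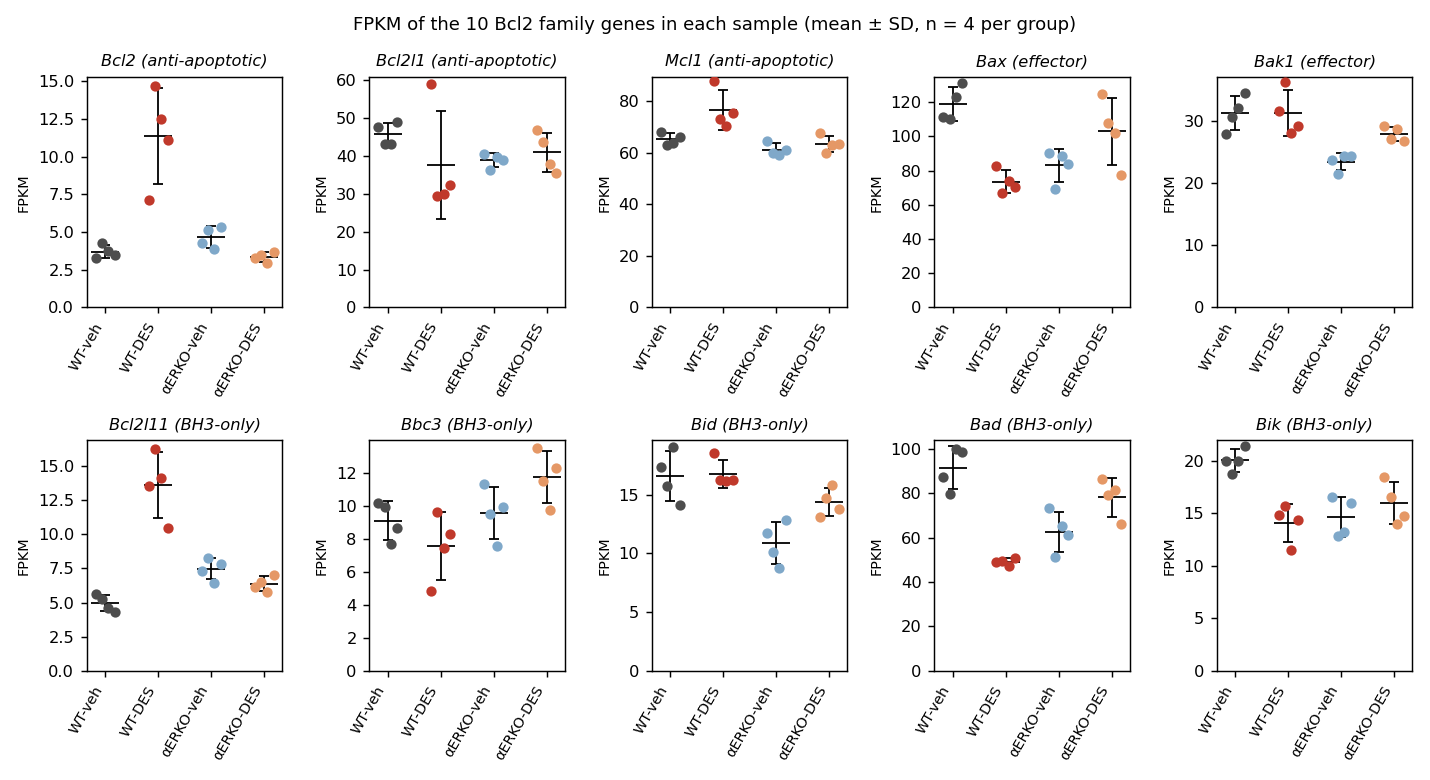
FPKM (y axis, from 0) of each of the 10 genes in the 16 samples, 1 point per sample in the 4 groups on the x axis, with the mean ± SD (n = 4) as lines. WT-DES samples lie above all others for *Bcl2*, *Bcl2l11* and *Mcl1*, and for *Bcl2l1* 1 WT-DES sample at 58.9 stands far from the other 3.

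The effectors differed from each other. *Bax*, on chromosome 7 (45461697 to 45466898, minus strand), had 111, 110, 123 and 131 FPKM in WT-veh and 82.4, 67.0, 74.1 and 70.1 in WT-DES. All WT-DES samples were below all WT-veh samples. The ratio was 0.617 (119 ± 10.1 against 73.4 ± 6.67, SD, n = 4) and the log2 change −0.69 (SE 0.13, limma adjusted p = 0.000176), which under quantile normalization was −0.11 and no longer passed (limma adjusted p = 0.269). In αERKO, *Bax* was 90.2, 69.0, 88.7 and 84.0 FPKM after vehicle and 124, 108, 102 and 77.1 after DES. The αERKO-DES samples were spread widely and 1 of them fell within the vehicle range. That log2 change of 0.29 did not pass (limma adjusted p = 0.169), and the interaction was −0.98 (SE 0.18, limma adjusted p = 0.000196), which was also lost under quantile normalization, at −0.24 (limma adjusted p = 0.110).

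*Bak1*, on chromosome 17 (27019810 to 27029009, minus strand), codes for the effector that resides at the mitochondrion. It had 28.0, 30.7, 32.2 and 34.6 FPKM in WT-veh and 31.6, 36.4, 28.1 and 29.3 in WT-DES. The WT groups overlapped almost fully, at means of 31.4 each. The log2 change was −0.00 (95% confidence interval −0.18 to 0.17, limma adjusted p = 0.977), and rescaling without the 20 most abundant genes gave 0.42, which passed (limma adjusted p = 0.000194). In αERKO, *Bak1* ranged from 21.5 to 24.5 FPKM after vehicle and from 26.8 to 29.2 after DES without overlap. The log2 change there was 0.24 (95% confidence interval 0.07 to 0.42, limma adjusted p = 0.0970). *Bax* and *Bak1* summed to 139 to 166 FPKM in WT-veh and, after DES, to 99.4 to 114.

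Of the 5 BH3-only members, *Bcl2l11* was the 1 that rose. This gene, on chromosome 2 (128126038 to 128162547, plus strand), encodes Bim, a sensor of lost survival signals that binds all anti-apoptotic members. Its FPKM was 5.61, 5.29, 4.63 and 4.29 in WT-veh and 13.5, 16.3, 14.1 and 10.4 in WT-DES. All WT-DES samples lay above all samples of the other groups. The ratio was 2.74 and the log2 change 1.28 (SE 0.12, limma adjusted p = 1.75e-07). In αERKO, *Bcl2l11* was 7.33, 8.28, 6.46 and 7.79 FPKM after vehicle and 6.17, 6.54, 5.78 and 7.04 after DES. These overlapped, at a log2 change of −0.20 (95% confidence interval −0.45 to 0.05, limma adjusted p = 0.307). The interaction was 1.48 (SE 0.17, limma adjusted p = 2.21e-06). The 3 groups other than WT-DES were not alike, since every αERKO sample lay above every WT-veh sample.

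*Bad*, on chromosome 19 (6941861 to 6951899, plus strand), encodes a BH3-only protein that growth factor signalling holds inactive by phosphorylation. It had 87.2, 79.6, 99.8 and 98.7 FPKM in WT-veh, and the WT-DES samples had 49.0, 49.6, 47.3 and 50.7. The WT-DES samples lay close together, below every other sample. The ratio was 0.538, the log2 change −0.88 (SE 0.11, limma adjusted p = 3.12e-06). It still passed at −0.38 with quantile normalization and at −0.45 after rescaling without the 20 most abundant genes. In αERKO, *Bad* was 73.2, 51.4, 65.1 and 60.9 FPKM after vehicle and 86.5, 79.0, 81.4 and 66.0 after DES. The DES samples were mostly the higher ones, with a log2 change of 0.32 (95% confidence interval 0.09 to 0.55) that did not pass (limma adjusted p = 0.0950). The interaction of −1.20 (SE 0.15, limma adjusted p = 6.32e-06) passed in all alternatives but was smaller, at −0.54, under quantile normalization and, at −0.64, after rescaling.

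*Bik*, on chromosome 15 (83526862 to 83544634, plus strand), encodes a BH3-only protein of the endoplasmic reticulum. Its values were 19.9, 18.8, 19.9 and 21.4 FPKM in WT-veh and 14.8, 15.7, 11.5 and 14.4 in WT-DES. The WT-veh samples were the highest of all 16, and the other 3 groups overlapped. *Bik* fell by 0.48 on the log2 scale after DES in WT (SE 0.11, limma adjusted p = 0.000875). This call was lost when the samples were rescaled without the 20 most abundant genes, at −0.07 (limma adjusted p = 0.506), and after a correction for transcript length, at −0.12 (limma adjusted p = 0.213). In αERKO, *Bik* was 12.8 to 16.5 FPKM after vehicle and 14.0 to 18.5 after DES, and the interaction was −0.60 (SE 0.15, limma adjusted p = 0.00258), which after the same rescaling was −0.07 and was lost (limma adjusted p = 0.667).

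*Bid*, on chromosome 6 (120891930 to 120916853, minus strand), links death receptors to mitochondria once caspase 8 has cut the protein. Its FPKM was 17.4, 15.8, 19.1 and 14.1 in WT-veh, and 18.6, 16.2, 16.2 and 16.2 in WT-DES. All WT-DES values lay within the WT-veh range, with a log2 change of 0.02 (95% confidence interval −0.21 to 0.26, limma adjusted p = 0.866). Rescaling without the 20 most abundant genes gave 0.43, which passed (limma adjusted p = 0.0034). In αERKO, *Bid* was 11.8, 10.2, 8.75 and 12.8 FPKM after vehicle and 13.2, 14.8, 15.9 and 13.8 after DES. The αERKO groups did not overlap, the DES samples being higher, and the log2 change of 0.38 (95% confidence interval 0.15 to 0.62) just missed the threshold (limma adjusted p = 0.0652). The interaction of −0.36 (SE 0.15, limma adjusted p = 0.0483) held in only 7 of 27 alternatives.

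*Bbc3*, on chromosome 7 (16308393 to 16318205, plus strand), encodes Puma, a target of p53. It had 10.2, 9.97, 7.69 and 8.68 FPKM in WT-veh and 4.84, 9.68, 7.47 and 8.33 in WT-DES. Only sample 1 of WT-DES stood well below the WT-veh range. The log2 change was −0.27 (95% confidence interval −0.62 to 0.09, limma adjusted p = 0.160), and −0.09 without that sample (limma adjusted p = 0.548). Under quantile normalization it was −0.53 and passed (limma adjusted p = 0.0136). In αERKO, *Bbc3* ranged from 7.56 to 11.4 FPKM after vehicle and from 9.76 to 13.6 after DES, with overlap. The interaction of −0.54 (SE 0.23) did not pass (limma adjusted p = 0.0506), but under quantile normalization it was −0.82 and did (limma adjusted p = 0.00908), and after rescaling it was −0.03. Without sample 1 of WT-DES the interaction was −0.37 (limma adjusted p = 0.0875).

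Taking the test of the difference between genotypes, 6 of the 10 genes passed, *Bcl2* and *Bcl2l11* with a higher change with DES in WT and *Bad*, *Bax*, *Bik* and *Bid* with a lower one. In all genes tested, 35.3% were higher and 36.2% lower by this test. The 5 of these other than *Bid* also differed by at least 1.5-fold, as did 56.4% of all genes. The median interaction was −0.38 over the 10 genes and 0.00 over all genes on the log2 scale. Rescaling without the 20 most abundant genes turned the split of 2 higher and 4 lower into 4 higher and 2 lower (54.0% and 18.7% of all genes), with *Bid* at 0.17.

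In αERKO SVs, DES changed 0 of the 10 genes by limma, against 1.33% of all genes tested that were higher, 1.52% that were lower and 1.49% that passed 1.5-fold. At an unadjusted p of at most 0.05 there were 5 (25.3% of all genes tested), namely *Bid*, *Bad*, *Bak1*, *Bcl2* and *Bax*. *Bid*, *Bad*, *Bak1* and *Bax* had positive log2 changes, from 0.24 to 0.38, and *Bcl2* a negative one. The median was 0.18 over the 10 genes and 0.02 over all genes. Markers of skeletal muscle were lower for 6 of 8 genes in this comparison (summed FPKM from 604 to 2287 after vehicle and from 479 to 680 after DES), and adipose markers for 4 of 6 (87.9 to 1033 against 17.1 to 60.4) and fibroblast markers for 1 of 6, and their part in these values was not tested. Leaving out sample 1 of WT-DES, which is in neither group but enters the shared estimate of the spread, let *Bcl2* and *Bid* pass, and leaving out sample 1 of αERKO-veh let *Bid* and *Bad* pass. *Bax* passed without sample 4 of αERKO-DES, and 5 genes passed with sample weights, under which 41.8% of all genes did. The number of all genes called in this comparison ranged from 1 (0.00625%, without sample 4 of αERKO-veh) to 1430 (8.93%, without sample 1 of αERKO-veh) when single samples were left out. It was 2 or 3 without sample 3 of WT-veh, sample 2 of αERKO-veh or any of samples 1 to 3 of αERKO-DES.

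**Figure D2:**
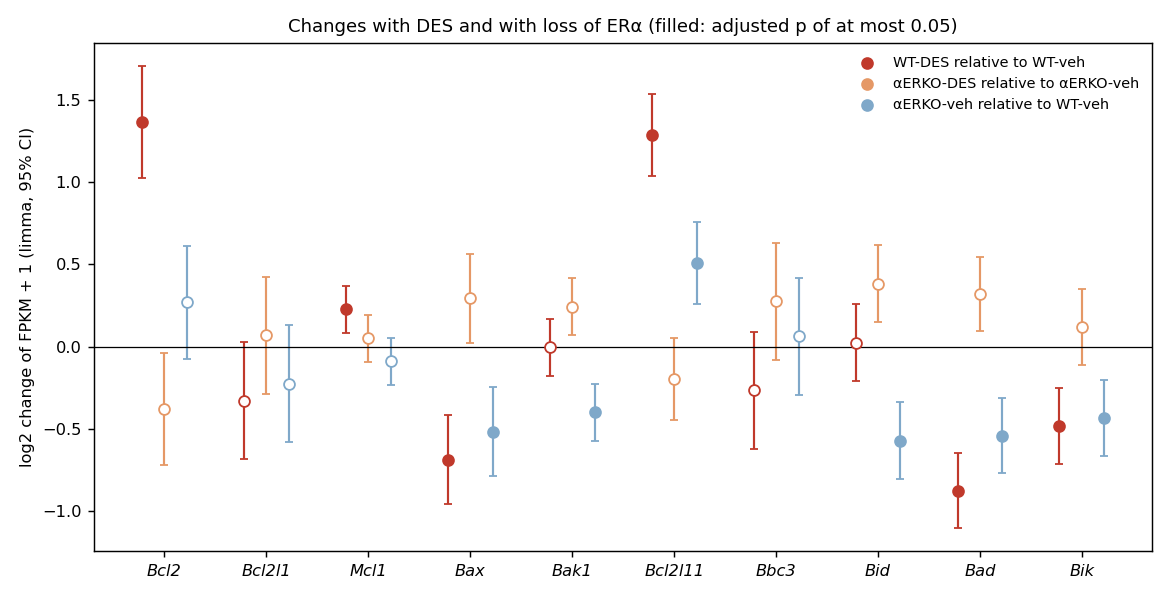
The log2 change of FPKM + 1 (y axis) of the 10 genes (x axis) with its 95% confidence interval from limma (n = 4 per group), for WT-DES versus WT-veh, αERKO-DES versus αERKO-veh and αERKO-veh versus WT-veh. Filled points have an adjusted p of at most 0.05, and the αERKO-DES series has none.

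αERKO-veh SVs had lower levels of 5 genes and a higher level of 1 than WT-veh SVs, groups that also differ in colony. Among all genes tested, 15.2% were lower and 10.8% higher. Rescaling without the 20 most abundant genes gave 5.62% of all genes lower and 20.1% higher, and quantile normalization 8.74% and 9.57%. The share of all genes called in this comparison, higher or lower, ranged from 9.69% (without sample 2 of αERKO-veh) to 32.1% (without sample 1 of WT-DES) when single samples were left out, with 13.8%, 14.0% and 17.0% without samples 3 and 4 of WT-veh and sample 4 of αERKO-veh, and it was 11.5% after length correction. Both effectors and 3 of the 5 BH3-only genes were lower. *Bid* fell by 0.57 on the log2 scale (SE 0.11, limma adjusted p = 0.00633), *Bad* by 0.54 (SE 0.11, limma adjusted p = 0.00663) and *Bax* by 0.52 (SE 0.13, limma adjusted p = 0.0123). *Bik* fell by 0.43 (SE 0.11, limma adjusted p = 0.0129) and *Bak1* by 0.40 (SE 0.081, limma adjusted p = 0.00739). For *Bid*, *Bad*, *Bax*, *Bik* and *Bak1* every αERKO-veh sample lay below every WT-veh sample. *Bcl2l11* was higher by 0.51 (SE 0.12, limma adjusted p = 0.0101). *Bcl2l11* (ratio 1.51) and *Bid* (ratio 0.655) also passed 1.5-fold, as did 7.12% of all genes, and both calls were lost without sample 3 of WT-veh or sample 2 of αERKO-veh. The 3 anti-apoptotic genes and *Bbc3* did not pass, with log2 changes of 0.27 for *Bcl2*, −0.09 for *Mcl1*, −0.23 for *Bcl2l1* and 0.06 for *Bbc3*. *Bcl2l1* passed at the same log2 change when sample 1 of WT-DES was left out of the shared estimate of the spread (limma adjusted p = 0.045). The median was −0.31 over the 10 genes and −0.02 over all genes. The comparisons of αERKO-veh and of WT-DES with WT-veh share their control samples, so values common to both (*Bax*, *Bad* and *Bik* lower, *Bcl2l11* higher) are given side by side and do not back each other.

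Skeletal muscle markers were higher for 3 of 8 genes in αERKO-veh versus WT-veh (mean log2 level from 4.33 to 7.79 against 2.39 to 7.20), as were 2 of 6 epithelial and 1 of 3 endothelial markers, and 1 of 11 leukocyte markers was lower. Their part was not tested. After a length correction *Bax* (−0.21, limma adjusted p = 0.104) and *Bik* (−0.17, limma adjusted p = 0.197) no longer passed in αERKO-veh versus WT-veh. *Bik* was also lost after rescaling without the 20 most abundant genes, at −0.26 (limma adjusted p = 0.064), and without sample 2 of αERKO-veh.

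Between the DES-treated groups, αERKO-DES had lower *Bcl2*, *Bcl2l11* and *Mcl1* and higher *Bad*, *Bbc3* and *Bax* than WT-DES, while 36.2% of all genes were lower and 37.8% higher. *Bcl2* fell by 1.47 (limma adjusted p = 8.85e-07), *Bcl2l11* by 0.97 (limma adjusted p = 2.64e-06) and *Mcl1* by 0.27 (limma adjusted p = 0.00211) on the log2 scale. *Bcl2l1* did not pass with the 4 samples of WT-DES, at 0.17 (limma adjusted p = 0.368), and was higher by 0.40 without sample 1 of WT-DES (limma adjusted p = 0.000682). *Bad* was higher by 0.65 (limma adjusted p = 5.21e-05), *Bbc3* by 0.60 (limma adjusted p = 0.00423) and *Bax* by 0.46 (limma adjusted p = 0.00395), but *Bax* was at −0.09 under quantile normalization. The call of *Bad* was lost under quantile normalization, at 0.18 (limma adjusted p = 0.0537), that of *Bbc3* after rescaling without the 20 most abundant genes, at 0.26 (limma adjusted p = 0.231), and that of *Bax* under both. *Bcl2*, *Bcl2l11*, *Bad* and *Bbc3* passed 1.5-fold, as did 53.4% of all genes, and *Bbc3* did not without sample 1 of WT-DES or sample 1 of αERKO-DES. Rescaling without the 20 most abundant genes gave 1 higher and 5 lower (22.02% and 52.7% of all genes), and quantile normalization 1 higher and 4 lower (39.7% and 30.8% of all genes). αERKO-DES did not differ by the test from WT-veh for any of the 10 genes (0 by limma, and 2 at an unadjusted p of at most 0.05, which 26.4% of all genes reached), where 4.77% of all genes were higher, 3.28% lower and 3.18% past 1.5-fold. The nearest were *Bik*, at a log2 difference of −0.32 (limma adjusted p = 0.0796), and *Bcl2l11*, at 0.31 (limma adjusted p = 0.106). Without sample 1 of αERKO-DES, *Bik* passed. The share of all genes called in αERKO-DES versus WT-veh ranged from 2.36% (without sample 3 of αERKO-DES) to 14.3% (without sample 1 of αERKO-DES) when single samples were left out. The comparison with WT-DES shares the αERKO-DES samples with that with WT-veh.

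Markers moved in both of these comparisons. In αERKO-DES versus WT-DES, 11 of 11 leukocyte, 6 of 6 fibroblast, 6 of 6 adipose and 3 of 3 endothelial markers were lower, with summed FPKM in αERKO-DES of 41.9 to 63.8, 496 to 594, 17.1 to 60.4 and 43.3 to 49.8. SV secretory genes were higher for 6 of 6, prostate markers for 4 of 4, smooth muscle markers for 5 of 6, and skeletal muscle markers for 1 of 8, while of the 6 epithelial markers 4 were higher and 1 was lower. In αERKO-DES versus WT-veh, adipose markers were lower for 5 of 6, fibroblast markers for 3 of 6 and leukocyte markers for 1 of 11, and 1 of 6 epithelial markers was higher. Their part in the differences of the 10 genes was not tested.

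The makeup of the family differed between the groups. By group mean, *Mcl1* had the highest FPKM of the 10 genes in WT-DES and *Bax* in every other group. *Bbc3* was the lowest in WT-DES and *Bcl2* in every other group. Among the tested genes *Bcl2* stood at percentile 28.2 in WT-veh and at percentile 48.1 in WT-DES, and made up 2.76% to 3.87% of the summed FPKM of the 3 anti-apoptotic genes in WT-veh and 4.64% to 12.5% in WT-DES. The summed FPKM of the 3 anti-apoptotic genes was 110 to 119 after vehicle and 113 to 154 after DES in WT (113 to 119 without sample 1 of WT-DES), and that of the 5 BH3-only genes 129 to 151 and 96.5 to 107.

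The FPKM of *Bax* exceeded that of *Bcl2* by 34.0, 25.7, 33.0 and 37.9 times in the samples of WT-veh, and the ratio was 11.5, 4.56, 5.93 and 6.31 in those of WT-DES. The WT-DES ratios were the lowest of all 16 samples. In αERKO-veh the ratio was 13.4 to 22.9, and in αERKO-DES it was 21.0 to 38.3. *Bax* had the shortest annotated transcript of the members (1100 nt) and *Bcl2* the longest (7191 nt). The ratios were not corrected for length. With length correction, the log2 change in WT-DES versus WT-veh was −0.25 for *Bax* and 0.98 for *Bcl2* (−0.69 and 1.36 without). In αERKO-veh versus WT-veh it was −0.21 for *Bax* and 0.01 for *Bcl2* (−0.52 and 0.27 without), and neither corrected change passed. *Mcl1* exceeded *Bcl2l1* by 1.36 to 1.49 times in WT-veh and by 2.34 to 2.48 times in 3 WT-DES samples, with sample 1 of WT-DES at 1.49. The ratio of *Bcl2l11* to *Bcl2* was 1.24 to 1.71 in WT-veh and 1.89, 1.11, 1.13 and 0.939 in WT-DES. It was 1.45 to 1.97 in the αERKO samples, so the WT-DES samples other than sample 1 had the lowest ratios of all 16. These are ratios of RNA and give no protein levels.

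**Figure D3:**
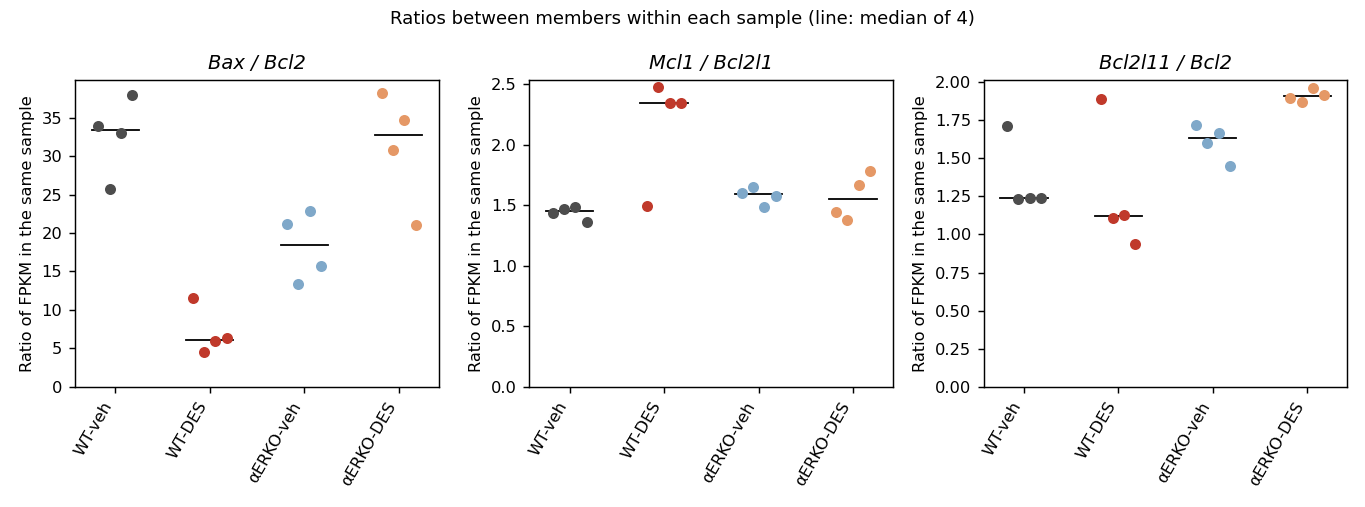
Ratio of FPKM between 2 genes in the same sample (y axes, from 0) in the 4 groups, 1 point per sample with the median as a line, for *Bax* to *Bcl2*, *Mcl1* to *Bcl2l1* and *Bcl2l11* to *Bcl2*. The *Bax* to *Bcl2* ratio was 4.56 to 11.5 in WT-DES and 13.4 or more in the other samples.

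Across the 10 genes, the change after DES in WT was ordered with the length of the transcript. The longest annotated transcripts were those of *Bcl2* (7191 nt), *Bcl2l11* (5036 nt) and *Mcl1* (3418 nt), the genes that rose in WT-DES. The shortest were those of *Bax* (1100 nt), *Bik* (1335 nt) and *Bad* (1533 nt), the genes that fell. Spearman's rho between length and log2 change over the 10 genes was 0.89 for WT-DES versus WT-veh and 0.92 for the interaction, and over the 15049 tested genes with a length it was 0.26 and 0.27. For αERKO-veh versus WT-veh it was 0.67 over the 10 genes and 0.55 over all, and for αERKO-DES versus αERKO-veh −0.72 and −0.32. The 10 points share the same libraries and are a description. When the trend with length in each sample was subtracted, the log2 change in WT-DES versus WT-veh was 0.98 for *Bcl2*, 1.07 for *Bcl2l11* and 0.21 for *Mcl1*, and −0.57 for *Bad* and −0.25 for *Bax*, and the 5 still passed. *Bax* and *Bad* were then under 1.5-fold, and *Bik* no longer passed. The interactions of *Bik* (−0.13) and *Bid* (−0.16) were lost in the same way, while *Bcl2* (1.24), *Bcl2l11* (1.21), *Bad* (−0.80) and *Bax* (−0.44) kept theirs. RNA quality was not given in the sources used here, and its part was not tested.

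**Figure D4:**
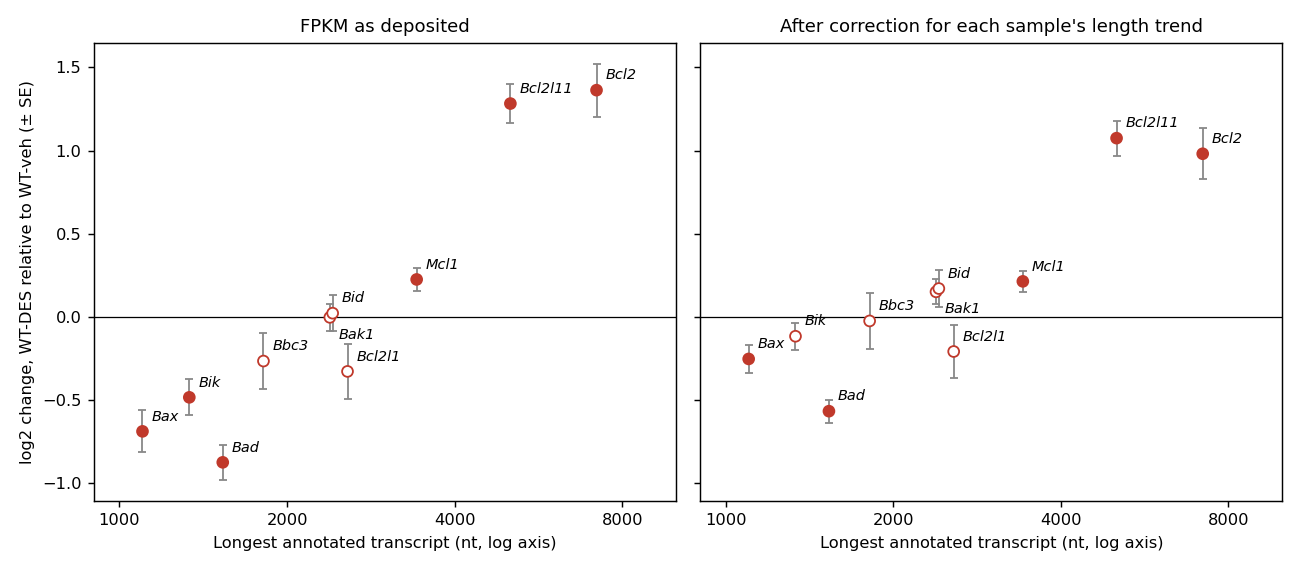
The log2 change in WT-DES versus WT-veh (y axis, ± SE from limma) against the length of the longest annotated transcript (x axis, nt, log axis) for the 10 genes, with FPKM as deposited on the left and after subtraction of the length trend of each sample on the right. Filled points have an adjusted p of at most 0.05, which *Bik* has on the left and not on the right.

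Cell type markers moved with these changes. In WT-DES versus WT-veh, all 11 leukocyte markers were higher (summed FPKM 76.3 to 134 in WT-veh and 468 to 859 in WT-DES), as were 6 of 6 fibroblast markers (731 to 881 and 1916 to 2091) and 3 of 3 endothelial markers (37.0 to 45.3 and 81.7 to 131). SV secretory genes were lower for 6 of 6 (41078 to 48226 and 2219 to 6947) and smooth muscle markers for 5 of 6 (2993 to 3734 and 791 to 3580). Of the epithelial markers 2 of 6 were higher and 4 lower (964 to 1060 and 593 to 1075). Prostate markers were lower for 4 of 4 (3810 to 4359 and 28.9 to 334), adipose markers higher for 3 of 6 (218 to 1073 and 831 to 1929), and skeletal muscle markers lower for 2 of 8 (579 to 1889 and 40.5 to 343). None of the markers was at 0 in all samples of a group. The summed FPKM of all genes was 375207 to 437619 in WT-DES and 479045 to 652708 in the other groups. The part of cell makeup and of this total in the changes of the 10 genes was not tested.

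The rest of the pathway was read from lists of genes by role, whose counts stand beside 36.4% higher and 37.3% lower among all genes tested in WT-DES versus WT-veh, and 1.33% higher and 1.52% lower in αERKO-DES versus αERKO-veh. Of 16 other Bcl2 family genes, 14 were tested and *Bcl2l10* and *Hrk* were not. In WT-DES versus WT-veh 8 of the 14 rose and 2 fell, and in αERKO-DES versus αERKO-veh 0 of 14 passed. Those that rose include *Bcl2a1a*, *Bcl2a1b*, *Bcl2a1c* and *Bcl2a1d*, copies of related sequence that do not count as separate results. *Pmaip1*, which encodes the BH3-only protein Noxa, was 0.47 to 0.74 FPKM in WT-veh and 5.43 to 10.9 in WT-DES, a log2 change of 2.54 (limma adjusted p = 8.36e-09). In αERKO it was 0.53 to 1.34 FPKM after vehicle and 0.54 to 0.66 after DES. *Bcl2a1d*, an anti-apoptotic gene of haematopoietic cells, rose from 3.16 to 3.97 FPKM to 18.4 to 41.7 (log2 change 2.57, limma adjusted p = 3.04e-08), and since it shares most of its sequence with *Bcl2a1a* and *Bcl2a1b*, the share of each copy is uncertain. *Bmf*, a BH3-only gene, rose by 0.66 (limma adjusted p = 0.000486), from 11.9 ± 1.55 to 19.5 ± 3.58 FPKM (SD, n = 4).

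*Bcl2l2*, which encodes the anti-apoptotic Bcl-w, moved the other way from *Bcl2*. Its FPKM was 63.2, 65.5, 66.5 and 58.6 in WT-veh and 37.7, 24.1, 25.5 and 28.2 in WT-DES, with no overlap. *Bcl2l2* fell by 1.13 on the log2 scale (limma adjusted p = 2.67e-07), and in αERKO it was 59.1 to 64.7 FPKM after vehicle and 61.8 to 73.8 after DES. The effector-like *Bok* had 35.3 ± 4.64 FPKM in WT-veh and 28.8 ± 3.31 in WT-DES (log2 change −0.28, limma adjusted p = 0.0669), and fell by 0.58 in αERKO-veh versus WT-veh (limma adjusted p = 0.00989).

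Downstream of the mitochondrion, 4 of 7 genes of the apoptosome and caspases rose in WT-DES and 3 fell, and 0 of 7 passed in αERKO-DES versus αERKO-veh. *Apaf1*, the scaffold of the apoptosome, rose from 3.01 to 4.12 FPKM to 5.83 to 8.82 (log2 change 0.87, limma adjusted p = 1.64e-05). *Casp9*, the caspase that the apoptosome activates, rose by 0.40 (limma adjusted p = 7.60e-05). Of 9 inhibitors of apoptosis and mitochondrial release factors, 3 rose and 5 fell in WT-DES, and 1 rose in αERKO-DES versus αERKO-veh. *Birc3*, an inhibitor of apoptosis, rose by 0.87 (limma adjusted p = 4.32e-05) and the caspase inhibitor *Xiap* by 0.32 (limma adjusted p = 0.00527). *Diablo*, whose protein is released to bind such inhibitors, fell by 0.27 (limma adjusted p = 0.00364). Rescaling without the 20 most abundant genes shifted the median of all genes by 0.39, more than this fall, which was not recomputed. Larger falls in this list, named after their values were seen, were those of *Htra2* (87.7 to 105 FPKM in WT-veh and 27.0 to 32.7 in WT-DES), *Endog* (27.4 to 33.4 and 11.4 to 16.9) and *Aifm1* (44.0 to 50.3 and 21.2 to 26.7), which encode mitochondrial proteins released in apoptosis. Their log2 changes were −1.66 for *Htra2* (limma adjusted p = 7.29e-09), −1.07 for *Endog* (limma adjusted p = 5.99e-07) and −1.01 for *Aifm1* (limma adjusted p = 1.06e-07).

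In the death receptor arm 7 of 10 genes rose and 2 fell in WT-DES (36.4% and 37.3% of all genes), and 0 of 10 passed in αERKO-DES versus αERKO-veh (1.33% and 1.52% of all genes higher and lower). *Fas*, a death receptor, fell by 0.43 on the log2 scale (limma adjusted p = 0.00279), from 29.7 ± 2.24 to 21.7 ± 1.16 FPKM (SD, n = 4). That fall was near the 0.39 by which rescaling without the 20 most abundant genes shifted the median of all genes, and it was not recomputed. *Cflar*, which blocks caspase 8 at the receptor, rose by 0.30 (limma adjusted p = 0.00108) and *Casp8* by 0.21 (limma adjusted p = 0.0104). Of 8 regulators 7 were tested (*Trp73* was not), and 3 rose and 2 fell in WT-DES. *Foxo3*, a transcription factor known to act on *Bcl2l11* and *Bbc3*, rose by 1.02 (limma adjusted p = 0.000243), from 6.43 to 9.99 FPKM to 16.3 to 20.1, and *Trp53* by 0.36 (limma adjusted p = 0.00128). In αERKO-veh versus WT-veh, *Foxo3* was higher by 0.80 (limma adjusted p = 0.0121) and *Trp53* fell by 0.35 (limma adjusted p = 0.0114). 1 of the 7 regulators rose in αERKO-DES versus αERKO-veh.

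Some of the 10 genes share exon bases with a neighbour, and whether the libraries or the counting kept strand was not given in the sources used here. *Bak1* shares 25.5% of its exon bases with *Ggnbp1* on the other strand, *Bad* 20.5% with *Gpr137*, *Bid* 17.7% with *Bcl2l13* and *Bcl2* 6.09% with *D630008O14Rik*. *Bax* shares 12.2% with *Gm45808* on the same strand. Reads in these stretches cannot be assigned from the table.

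For the 3 members with the largest interaction, the genes with the most similar pattern over the 16 samples were taken from 10053 candidates with a mean FPKM of at least 10 in 1 group. Pearson's r of log2(FPKM + 1) with *Bcl2* was 0.988 for *Ets1*, 0.986 for *Prrx1* and 0.982 for *Swap70*. With *Bcl2l11* it was 0.980 for *Cp*, 0.976 for *Fmnl2* and 0.973 for *Map3k1*. With *Bad* it was 0.991 for *Tmem11*, 0.990 for *Sac3d1* and 0.987 for *Ssna1*. The 16 points fall into 4 groups and share the same libraries, so these values are a description.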

How the data were processed

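RNA of the SV from 16 samples in 4 groups was sequenced by the authors with paired reads of 126 nt, and reads with an average quality above 20 were mapped to mm10 (GRCm38) with TopHat2 2.0.4 and assembled with Cufflinks 2.0.2, as the study's methods and the submitters' processing notes give them. The authors deposited 1 table of FPKM per gene. Its annotation, and any scaling between libraries, was not given in the sources used here. Depth is unknown from FPKM, and precision can be judged only from the spread between samples, which the model pools over the 4 groups. No 2 samples had identical values.

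The 10 genes and the lists of other genes and markers were chosen with earlier results of these data known. Each of the 10 genes is described in full. From the pathway lists (other Bcl2 family, apoptosome and caspases, inhibitors and release factors, death receptor arm, regulators), named genes were set by role and not by how they moved, except *Htra2*, *Endog* and *Aifm1*, which were named after their values were seen. Some genes under this rule are not reported here. Markers were those of leukocytes, fibroblasts, endothelium, epithelium, SV secretion, smooth muscle, skeletal muscle, adipose tissue and prostate.

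Values were analysed as log2(FPKM + 1) in limma 3.58.1 (R 4.3.3), with 1 model of the 16 samples in which each group had its own mean, variances moderated along their trend with level (eBayes), two-sided tests and adjustment by Benjamini-Hochberg over 15988 genes. limma was used because the count-based test of the study requires reads. Fold changes on the log2(FPKM + 1) scale understate the change of low genes. Genes were called changed at an adjusted p of at most 0.05, and 1.5-fold was taken on the ratio of mean FPKM (for the interaction, and under quantile normalization and length correction, on the log2 difference). Transcript lengths and coordinates are from GENCODE M21 (GRCm38), and promoters from RefSeq. The length correction subtracted from each sample its lowess trend (span 0.3) on transcript length. Alternatives were a pseudocount of 0.1, no minimum or a minimum of 5 on mean FPKM, a model of 2 groups, no variance trend, sample weights, scaling by median ratios, by quantiles or without the 20 most abundant genes, length correction, a replicate block, an adjusted p of at most 0.01, the fold from the log2 difference, and leaving out each sample. The steps were tested on simulated data. Python 3.11.15, pandas 2.3.3, numpy 2.4.6, scipy 1.17.1 and matplotlib 3.10.9 were used for the tables and figures.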

Additional observations from a re-analysis of the deposited data

Results flagged for a closer look

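2 values were flagged as apart from the other 3 samples of the group. This was judged by Dixon's ratio of the gap to the whole range, computed for the 10 genes in 4 groups, which flags about 1 in 20 groups by chance. Over 40 such groups, that rate gives about as many flags as were found. Both were in sample 1 of WT-DES. *Bcl2l1* was at 58.9 FPKM there against 29.4 to 32.3 in the other WT-DES samples. *Bid* was at 18.6 FPKM against 16.2 in each of the other 3, and lay within the WT-veh range.

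The change with DES differed between WT and αERKO by the interaction test in limma for 6 genes. On the log2 scale the difference was 1.74 for *Bcl2* and 1.48 for *Bcl2l11*, higher in WT. It was −1.20 for *Bad*, −0.98 for *Bax*, −0.60 for *Bik* and −0.36 for *Bid*, lower in WT.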

How the results depend on the processing

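For the log2 changes of the 10 genes in the 6 comparisons, 1670 values under the alternatives were compared with those reported, of which 1553 kept direction and side of the threshold, 35 were weaker, 48 were stronger and 34 changed sign. The calls of *Bcl2*, *Bcl2l11*, *Bad* and *Mcl1* in WT-DES versus WT-veh, and those of *Bcl2*, *Bcl2l11* and *Bad* in the interaction, held under every alternative run. Scaling without the 20 most abundant genes shifted the median of all genes by 0.39 in WT-DES versus WT-veh, 0.14 in αERKO-veh versus WT-veh, −0.10 in αERKO-DES versus αERKO-veh, −0.34 in αERKO-DES versus WT-DES and 0.51 in the interaction, and its calls of all genes were 8899 higher and 3308 lower in the first of these. Changes smaller than these shifts depend on the scaling. Depth limits cannot be given from FPKM. The values of other pathway genes, markers, ratios and summed levels were not recomputed under the alternatives. The cause of the moves listed here was not tested.

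Counts of the 10 genes moved as follows. In αERKO-veh versus WT-veh an adjusted p of at most 0.01 left 3 changed genes, and the number past 1.5-fold went from 2 to 0 under quantile normalization, length correction and the fold from the log2 difference, and to 1 under rescaling and an adjusted p of at most 0.01. Length correction left 2 genes past 1.5-fold in WT-DES versus WT-veh, 2 in αERKO-DES versus WT-DES and 3 in the interaction. In αERKO-DES versus WT-DES it let *Bak1* (−0.23, limma adjusted p = 0.0106) and *Bid* (−0.29, limma adjusted p = 0.0299) pass as lower. There *Bak1* also passed after rescaling, at −0.53, and under quantile normalization, at −0.41, and *Bid* after rescaling, at −0.57. Sample weights gave 5 changed genes in αERKO-DES versus αERKO-veh (41.8% of all genes) and 3 in αERKO-DES versus WT-veh (24.7% of all genes), where the model of 2 groups gave 1. Leaving out each sample gave 5 to 7 changed genes in αERKO-veh versus WT-veh (0 to 3 past 1.5-fold), 6 to 7 in WT-DES versus WT-veh (4 past 1.5-fold), 0 to 2 in αERKO-DES versus αERKO-veh, 0 to 1 in αERKO-DES versus WT-veh, 6 to 7 in αERKO-DES versus WT-DES (3 to 5 past 1.5-fold) and 5 to 7 in the interaction (4 to 6 past 1.5-fold). The model of 2 groups was not run for the interaction.

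Values that changed sign were all of genes without a call except *Bax* in αERKO-DES versus WT-DES and *Bid* in the interaction. In αERKO-veh versus WT-veh, *Mcl1* was 0.067 under quantile normalization and 0.087 after rescaling, and *Bbc3* was −0.017 to 0.16 without single samples. In WT-DES versus WT-veh, *Bcl2l1* was 0.015 and 0.095, *Bak1* 0.26 and 0.42 (0.0079 under median-ratio scaling and 0.15 under length correction), *Bbc3* 0.12 after rescaling and *Bid* −0.078 with sample weights, and without single samples *Bak1* was −0.075 to 0.045 and *Bid* −0.048 to 0.089. In αERKO-DES versus αERKO-veh, *Bcl2l1* was −0.038 and −0.060, *Mcl1* −0.084 and −0.079, and *Bik* −0.0054 after rescaling. In αERKO-DES versus WT-veh, *Mcl1* was 0.0084 after rescaling. In αERKO-DES versus WT-DES, *Bcl2l1* was −0.15 and −0.20, *Bax* −0.091 under quantile normalization, and *Bik* −0.19 after rescaling and −0.035 under length correction. In the interaction, *Bcl2l1* was 0.052 and 0.16, *Bak1* 0.091 and 0.30, and *Bid* 0.17 after rescaling.

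No pairing of samples by replicate number was found. Over 24 pairs with the same number, the correlation of the deviations from the group means was −0.21 to 0.28, with 3 pairs above 0.1. With so few samples per group this check cannot exclude shared litters or batches. With the number as a replicate block, 6 genes changed in WT-DES versus WT-veh, 6 in αERKO-veh versus WT-veh, 6 in αERKO-DES versus WT-DES, 6 in the interaction and 0 in the other comparisons. In the interaction *Bid* was lost (limma adjusted p = 0.074) and *Mcl1* gained (limma adjusted p = 0.042).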
